A study of Neurospora crassa with 6 samples.

Results

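The genes described here are 4 transcripts of Neurospora crassa that carry a clock or blue-light name: ccg-1 (NCU03753), ccg-13 (NCU08907), ccg-14 (NCU07787) and bli-3 (NCU07267). They were chosen by name with their levels in these libraries already known, and they are 4 of the 10559 genes in the deposited table. The levels and differences of these 4 genes are therefore given as a description with no p, and their number among the genes called in the fit over all genes is printed only beside the share of all genes called. All 6 libraries come from a strain whose labels give deletions of cry, vvd and wc-1, and a strain with these genes intact is not analysed here. Polyadenylated RNA came from hyphae that had spent 45 min in medium with 2% glucose after growth on minimal slants. The groups are darkness, 1000 lux and 5000 lux, with 2 libraries each. The labels do not say whether the libraries of a group came from separate cultures, so the spread between them may be technical.

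In Neurospora the White Collar complex, built around the blue-light receptor White Collar-1, switches on light-responsive genes and also drives the circadian clock through frq. VIVID is a second blue-light receptor that tempers this response, and the cryptochrome is a further blue-light photoreceptor. Genes named ccg (clock-controlled gene) were found through transcripts that cycle with the clock, and genes named bli (blue-light-inducible) through transcripts that appear after blue light. ccg-1 is also known as the glucose-repressible gene grg-1. ccg-13 has the second name ncw-7 in the reference gene table, the naming series of non-anchored cell wall proteins, and ccg-14 encodes a small secreted protein of the cerato-platanin family. bli-3 was named for its induction by blue light.

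The deposited values are RPKM, read numbers scaled to gene length and library depth. Low RPKM values fall on a ladder of whole reads, which gave 16460000 to 21630000 reads on genes per library, rounded. The 3 genes labelled as deleted were listed above 0 in every library, with 6.31 to 9.04 RPKM for wc-1, 1.95 to 3.44 RPKM for vvd and 1.59 to 2.56 RPKM for cry. The median gene had 7.49 to 8.24 RPKM. Where in these genes the reads fall is not given, so the levels are no check of the labels. Of 5 vegetative hyphae markers in the table, the Woronin body gene hex-1 was the highest at 1035 to 1220 RPKM. No marker was called in any of the 3 comparisons by limma at adjusted p under 0.05. Of all genes tested, 9.13% were called higher and 7.82% lower at 1000 lux against darkness. The shares were 6.7% and 2.92% at 5000 lux against darkness, and 1.66% and 1.36% at 5000 against 1000 lux. With so few markers nothing is read from the lack of calls.

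The first pair, ccg-1 and bli-3, was higher at both light intensities than in darkness, by a similar factor, although ccg-1 was the more abundant transcript. ccg-1 had 742 and 644 RPKM in darkness, 1006 and 1124 RPKM at 1000 lux, and 1128 and 1177 RPKM at 5000 lux. All 4 light libraries lay above both dark libraries, and the lower 5000 lux library lay just above the higher 1000 lux library. The means were 693 ± 68.8 RPKM in darkness, 1065 ± 83.9 RPKM at 1000 lux and 1152.5 ± 34.5 RPKM at 5000 lux (SD, n = 2 each). The log2 fold changes, fitted on log2(RPKM + 1), were 0.62 (SE 0.09) at 1000 lux against darkness, 0.74 (SE 0.09) at 5000 lux against darkness and 0.12 (SE 0.09) at 5000 against 1000 lux. ccg-1 was thus about 1.54 times its dark level at 1000 lux and 1.67 times at 5000 lux.

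bli-3 had 107 and 104 RPKM in darkness, 149 and 177 RPKM at 1000 lux, and 177 and 192 RPKM at 5000 lux. The dark libraries lay below all light libraries, while the 1000 and 5000 lux libraries overlapped, since the lower 5000 lux library had 177.07 RPKM and the higher 1000 lux library 177.48 RPKM. Its means were 106 ± 2.34 RPKM in darkness, 163 ± 20.2 RPKM at 1000 lux and 184 ± 10.3 RPKM at 5000 lux (SD, n = 2 each). The log2 fold changes were 0.62 (SE 0.10) at 1000 lux against darkness, 0.80 (SE 0.10) at 5000 lux against darkness and 0.18 (SE 0.10) at 5000 against 1000 lux. bli-3 overlaps the gene NCU07266 in the reference gene table. In darkness NCU07266 had 17.4 and 19.7 RPKM, with 33.5 and 23.4 RPKM at 1000 lux and 26.6 and 22.9 RPKM at 5000 lux, well below bli-3 in every library. Whether reads were counted by strand is not given in the sources used here, so reads from the shared stretch cannot be assigned to one gene of this pair.

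The second pair, ccg-13 and ccg-14, was highest at 1000 lux and lay between that level and darkness at 5000 lux. ccg-13 had 655 and 532 RPKM in darkness, 2232 and 2787 RPKM at 1000 lux, and 1436 and 1235 RPKM at 5000 lux. The 3 groups did not overlap. Its means were 594 ± 87.3, 2509 ± 393 and 1335 ± 142 RPKM in the dark, at 1000 lux and at 5000 lux (SD, n = 2 each). The log2 fold change was 2.08 (SE 0.13) at 1000 lux against darkness, the 4th highest of 7841 genes fitted. It was 1.17 (SE 0.13) at 5000 lux against darkness, the 11th highest, and -0.90 (SE 0.13) at 5000 against 1000 lux. Among all genes ccg-13 stood at rank 88 and 118 by RPKM in the dark libraries and at rank 11 and 9 in the 1000 lux libraries.

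ccg-14 was the most abundant of the 4 genes in every library, with 1885 and 1691 RPKM in darkness, 3252 and 3855 RPKM at 1000 lux, and 2366 and 2337 RPKM at 5000 lux. Its groups did not overlap either, and its libraries at 5000 lux differed by 1.25% of their mean, against 17.0% at 1000 lux and 10.8% in darkness. The means were 1788 ± 137 RPKM in darkness, 3553.5 ± 426 RPKM at 1000 lux and 2351 ± 20.7 RPKM at 5000 lux (SD, n = 2 each). The log2 fold changes were 0.99 (SE 0.10) at 1000 lux against darkness, 0.40 (SE 0.10) at 5000 lux against darkness and -0.59 (SE 0.10) at 5000 against 1000 lux. ccg-14 gave 0.92% and 1.10% of all reads on genes in the 1000 lux libraries, and 0.54% and 0.48% in the dark libraries.

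**Figure D1:**
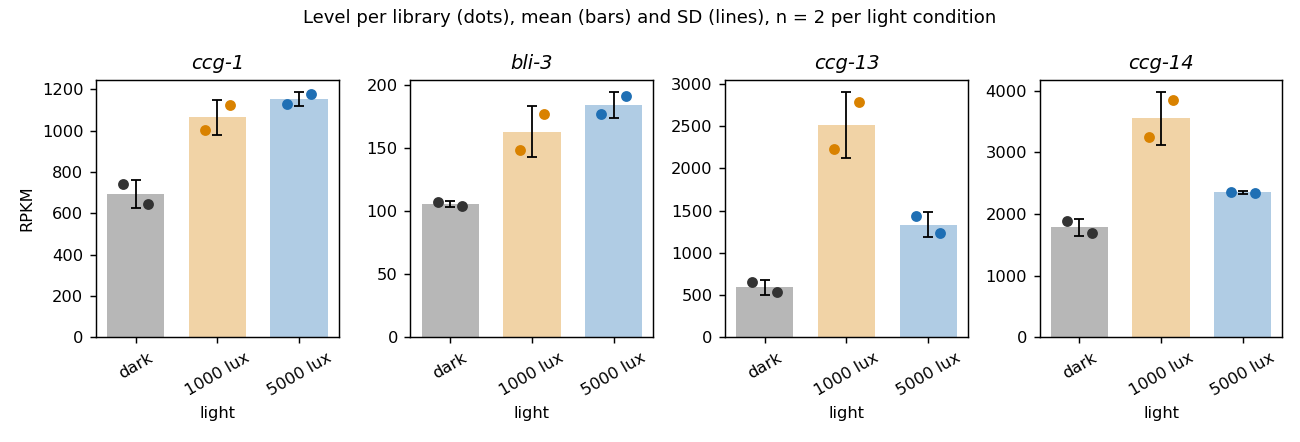
RPKM of ccg-1, bli-3, ccg-13 and ccg-14 (vertical axes, each from 0 with its own scale) by light condition. Dots are libraries, bars are means and lines are SD (n = 2 each). ccg-1 and bli-3 were lowest in darkness and higher at both intensities, while ccg-13 and ccg-14 were highest at 1000 lux, at 2509 and 3553.5 RPKM.

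In each comparison with darkness the limma fit over all 7841 genes tested placed 4 of the 4 genes at an adjusted p under 0.05 on the higher side. The same rule called 9.13% of all genes tested higher and 7.82% lower at 1000 lux, and 6.7% higher and 2.92% lower at 5000 lux. Between 5000 and 1000 lux it placed 2 of the 4, ccg-13 and ccg-14, on the lower side, where 1.36% of all genes tested lay, and 0 on the higher side, where 1.66% lay. The libraries of all 4 genes lay above darkness without overlap at both intensities, as did those of 30.3% of all genes tested at 1000 lux and 29.8% at 5000 lux. At 5000 against 1000 lux, ccg-13 and ccg-14 lay lower without overlap, as did 19.2% of all genes tested, and ccg-1 lay higher, as did 29.4%. Nothing is read from these counts, because the genes were chosen with these comparisons known, and the comparisons share libraries. Both comparisons with darkness use the same 2 dark libraries, and the comparison of 5000 with 1000 lux shares its libraries with them.

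When 1 library was left out at a time, the log2 fold change at 1000 lux against darkness ranged from 0.52 to 0.72 for ccg-1, from 0.49 to 0.74 for bli-3, from 1.92 to 2.24 for ccg-13 and from 0.86 to 1.11 for ccg-14. At 5000 lux against darkness the ranges were 0.63 to 0.84, 0.74 to 0.85, 1.02 to 1.32 and 0.32 to 0.48 in the same order. At 5000 against 1000 lux, ccg-13 ranged from -1.07 to -0.74 and ccg-14 from -0.71 to -0.47. The count of 4 at 5000 lux against darkness became 3, ccg-14 being the gene not counted, without dark replicate 2 or either 5000 lux library. The count of 2 at 5000 against 1000 lux became 0 without 1000 lux replicate 2 and 1 without either 5000 lux library, ccg-14 again being the gene not counted.

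**Figure D2:**
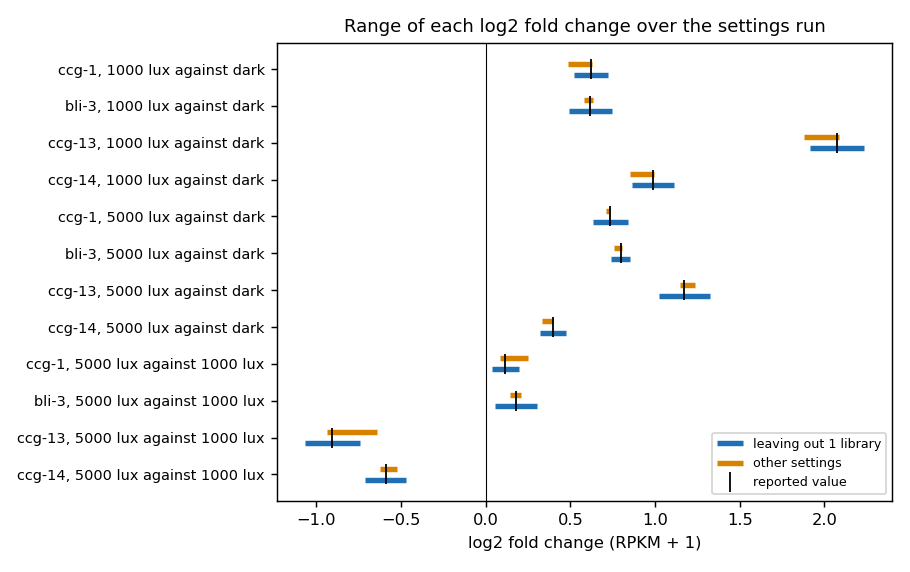
Log2 fold change on log2(RPKM + 1) (horizontal axis) of each gene in each comparison, as reported (black marks), with its range when 1 library is left out (blue) and over the other settings (orange). No range crosses 0; for ccg-1 at 5000 against 1000 lux the ranges begin at 0.04 and 0.08.

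The reads behind each value give its counting error. bli-3, with the fewest reads of the 4 genes, had between 2726 reads (dark replicate 1) and 5190 reads (1000 lux replicate 2), which gives a counting error of at most 1.92% per library. Its libraries differed by 3.13% of their mean in darkness, near the counting error, and by 17.5% at 1000 lux and 7.92% at 5000 lux. For ccg-13, with 16441 to 80417 reads, the counting error was at most 0.78%, and the libraries of a group differed by 15.1% to 22.1% of their mean. Together the 4 genes took 0.71% and 0.63% of the reads on genes in the dark libraries, 1.35% and 1.62% at 1000 lux, and 1.00% and 0.97% at 5000 lux.

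The ratio of 2 genes within a library does not depend on the depth of that library. The RPKM of bli-3 was 0.145 and 0.161 of that of ccg-1 in the dark libraries, 0.148 and 0.158 at 1000 lux, and 0.157 and 0.163 at 5000 lux. These 3 groups overlapped, so the 2 transcripts kept about the same proportion in every condition. The RPKM of ccg-13 was 0.348 and 0.315 of that of ccg-14 in the dark libraries, 0.686 and 0.723 at 1000 lux, and 0.607 and 0.528 at 5000 lux. Here the groups did not overlap, and ccg-13 gained on ccg-14 at both intensities. The RPKM of ccg-14 was 2.54 and 2.62 times that of ccg-1 in darkness, 3.23 and 3.43 times at 1000 lux, and 2.10 and 1.99 times at 5000 lux, so this ratio was highest at 1000 lux and lowest at 5000 lux.

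**Figure D3:**
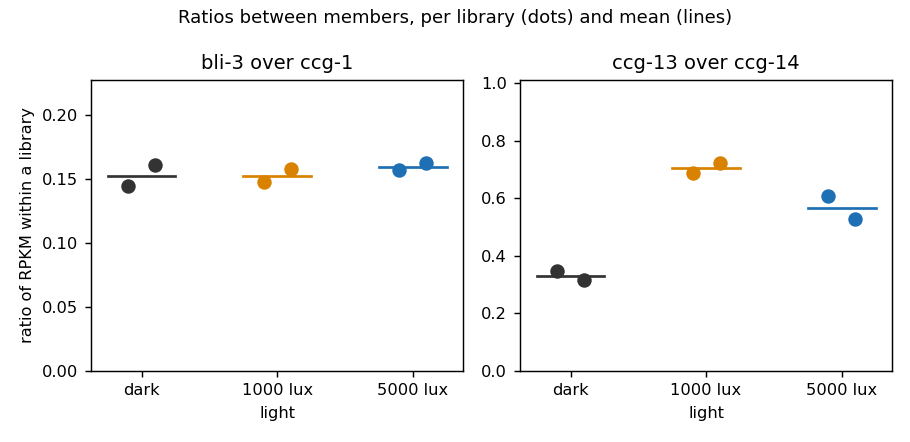
Ratio of RPKM within each library (vertical axes, from 0) for bli-3 over ccg-1 and ccg-13 over ccg-14, by light condition. Dots are libraries and lines are means of 2. The bli-3 to ccg-1 ratio stayed between 0.145 and 0.163, while the ccg-13 to ccg-14 ratio was 0.315 to 0.348 in darkness and 0.528 to 0.723 in light.

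The remaining genes with a ccg or bli name did not share 1 pattern. There are 10 of them by symbol or second name in the reference gene table. Of these, 9 reached 1 RPKM in at least 2 libraries and were tested. At 1000 lux against darkness 2 rose and 1 fell, where 9.13% of all genes tested rose and 7.82% fell. The median log2 fold change was 0.007, against 0.0008 over all 7841 genes tested. At 5000 lux against darkness 1 rose and 0 fell, where 6.7% of all genes tested rose and 2.92% fell. The median was -0.006, against 0.023 over all genes tested. At 5000 against 1000 lux 1 rose and 1 fell, where 1.66% of all genes tested rose and 1.36% fell. The median was -0.17, against 0.03 over all genes tested.

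ccg-9, which encodes trehalose synthase, had 8.64 and 8.24 RPKM at 1000 lux, against 3.63 and 4.21 RPKM in darkness (limma log2 fold change 0.94, SE 0.13, adjusted p = 0.0018). At 5000 lux it had 4.20 and 3.60 RPKM, overlapping the dark libraries and below 1000 lux (log2 fold change -0.95, SE 0.13, limma adjusted p = 0.0083). The second of these calls was lost without either 1000 lux library or 5000 lux replicate 1, with log2 fold changes from -1.04 to -0.86 over the 6 libraries left out in turn. The ccg-9 level was thus near that of darkness at 5000 lux, where ccg-13 and ccg-14 were above it.

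eas, the hydrophobin gene that also bears the names ccg-2 and bli-7, ran the other way. It had 70.6 and 76.1 RPKM at 1000 lux, against 212 and 173 RPKM in darkness (limma log2 fold change -1.38, SE 0.14, adjusted p = 0.00046). At 5000 lux it had 169 and 231 RPKM, a range that took in both dark libraries and lay above 1000 lux (log2 fold change 1.42, SE 0.14, limma adjusted p = 0.0012). Hydrophobin coats the surface of conidia. Of the 9 tested genes eas was the 1 that fell at 1000 lux against darkness. cmt, the copper metallothionein gene also named ccg-12, had 1282 and 1123 RPKM at 1000 lux, against 953 and 926 RPKM in darkness (limma log2 fold change 0.35, SE 0.09, adjusted p = 0.021), a call lost without either dark library or 1000 lux replicate 1, without the low-value filter or the variance trend, and under quantile normalization.

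ccg-8, which encodes a transcription factor, had 13.9 and 14.9 RPKM at 5000 lux, against 10.6 and 11.3 RPKM in darkness. The log2 fold change was 0.36 (SE 0.10) with a limma adjusted p of 0.049, and leaving out any 1 of the 6 libraries ended the call, at values between 0.31 and 0.41. ccg-16 had 2883 and 2483 RPKM at 1000 lux, against 2265 and 1818 RPKM in darkness, a log2 fold change of 0.40 (SE 0.12) that missed the threshold (limma adjusted p = 0.0502) and passed it under 7 of the 19 alternatives. The 4 further tested genes were called in none of the 3 comparisons at a limma adjusted p under 0.05. Of these, ccg-6 ranged from 1632 to 1950 RPKM over the 6 libraries, ccg-15 from 685 to 817 RPKM, and gpd-1 (ccg-7), which encodes glyceraldehyde-3-phosphate dehydrogenase, from 3587 to 4557 RPKM. bli-4, the other bli gene by symbol, had 1.30 and 2.80 RPKM in darkness, 1.49 and 1.54 RPKM at 1000 lux and 1.50 and 1.14 RPKM at 5000 lux and lay far below bli-3 in every library. ccg-4, a pheromone precursor gene, stayed below 0.17 RPKM and was listed at 0 in 1000 lux replicate 2.

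**Figure D4:**
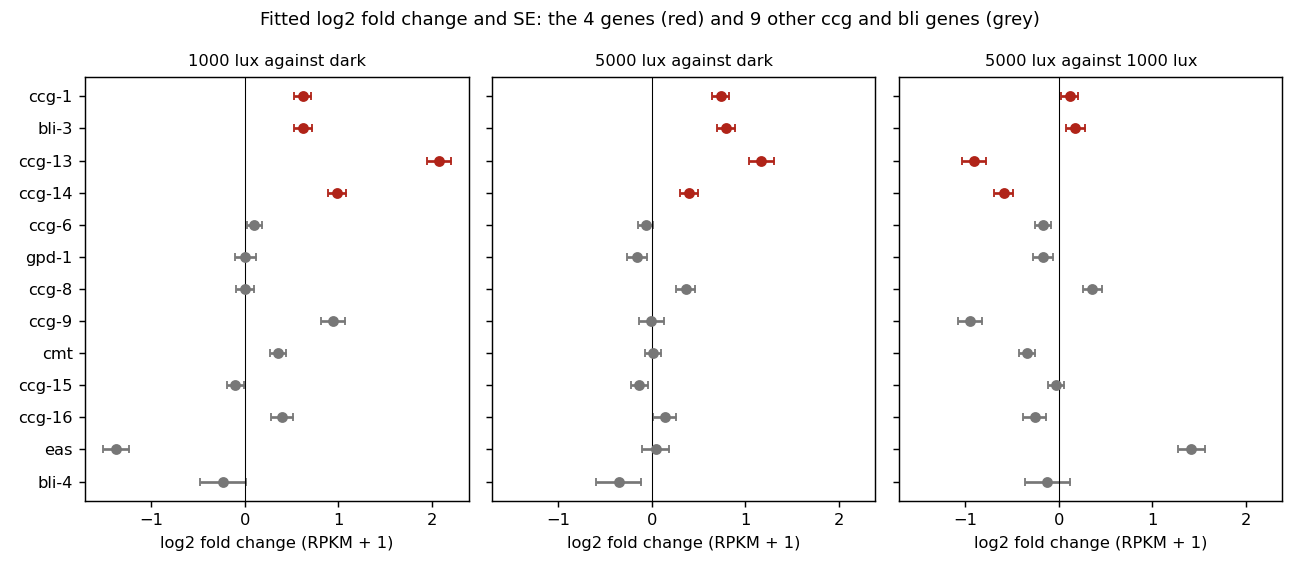
Fitted log2 fold change on log2(RPKM + 1) with its SE (horizontal axes) in the 3 comparisons, for the 4 genes (red) and the 9 tested others with a ccg or bli name (grey). At 1000 lux against darkness ccg-13 stood at 2.08, ccg-14 at 0.99 and ccg-9 at 0.94, and eas at -1.38. The added 1 RPKM shrinks the change of ccg-9, whose ratio of mean RPKM was 2.15, against 1.99 for ccg-14.

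Likeness between 2 genes was measured as the root mean square difference over the 6 libraries between their log2(RPKM + 1) profiles, each centred on its own mean. It is a description over libraries that share their depth and handling, without a test. ccg-1 and bli-3 differed by 0.06 on this scale, which made each the 2nd nearest of 7840 genes to the other. ccg-14 was the 33rd nearest gene to ccg-13, at a difference of 0.46. Seen from ccg-14, ccg-13 stood at place 4968. Both ccg-1 (0.29, place 452) and bli-3 (0.32, place 798) lay nearer to ccg-14 than ccg-13 did. From ccg-13 they lay farther off than ccg-14, at 0.62 and 0.63. The Pearson correlation with ccg-14 over the 6 libraries was 0.98 for ccg-13, 0.72 for ccg-1 and 0.67 for bli-3. Thus ccg-13 and ccg-14 are paired by the order of their group levels, and not by nearness to ccg-14 on this measure.

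Around ccg-1 the 5 nearest genes with a symbol were the kinase gene stk-52, nic-7, leu-2, gdh-1 and cyt-18, at differences of 0.08 to 0.14. stk-52 had means of 12.7, 19.0 and 21.3 RPKM in the dark, at 1000 lux and at 5000 lux, against 693, 1065 and 1152.5 RPKM for ccg-1, so the shapes were alike at very different levels. leu-2, a gene of leucine synthesis, averaged 38.4 RPKM in darkness, 60.6 RPKM at 1000 lux and 61.3 RPKM at 5000 lux. It overlaps NCU04386. Around bli-3 the 5 nearest were stk-52, leu-2, gdh-1, cel-1 and the zinc transporter gene tzn-1, at 0.10 to 0.14, so 3 of the 5 were shared with ccg-1. cel-1, a fatty acid synthase gene with the second name fas, had 66.5, 90.3 and 117 RPKM in the dark, at 1000 lux and at 5000 lux. Among unnamed genes NCU01809 was the nearest to ccg-1 (0.06) and the 2nd nearest to bli-3 (0.09), with 7.22, 10.8 and 12.0 RPKM.

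Around ccg-13 the nearest gene with a symbol was ncw-5, a gene of the same cell wall naming series as its second name ncw-7, at a difference of 0.08. ncw-5 had means of 43.7, 212 and 108 RPKM in the dark, at 1000 lux and at 5000 lux, with log2 fold changes of 2.25 and 1.28 at 1000 and 5000 lux against darkness, beside 2.08 and 1.17 for ccg-13. It overlaps NCU00715. The next genes with a symbol lay much farther off, gh28-1 at 0.36 and lyz at 0.37, then a row named only as the hsp20 family at 0.42 and ncw-3 at 0.48. Among unnamed genes NCU00399 was nearest at 0.21, with 306, 1428 and 559 RPKM, and it overlaps NCU00398.

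Around ccg-14 the nearest gene with a symbol was ncw-3, at 0.05, with means of 763, 1466 and 1013.5 RPKM in the dark, at 1000 lux and at 5000 lux. Its log2 fold changes of 0.94 and 0.41 at 1000 and 5000 lux against darkness stood beside 0.99 and 0.40 for ccg-14. lyz followed at 0.12, then the opsin gene nop-1 and ncw-6 at 0.17 each and con-10 at 0.19. nop-1 and con-10 were at 3 RPKM or below in every group mean, where the pseudocount of 1 RPKM shrinks a fold change.

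**Figure D5:**
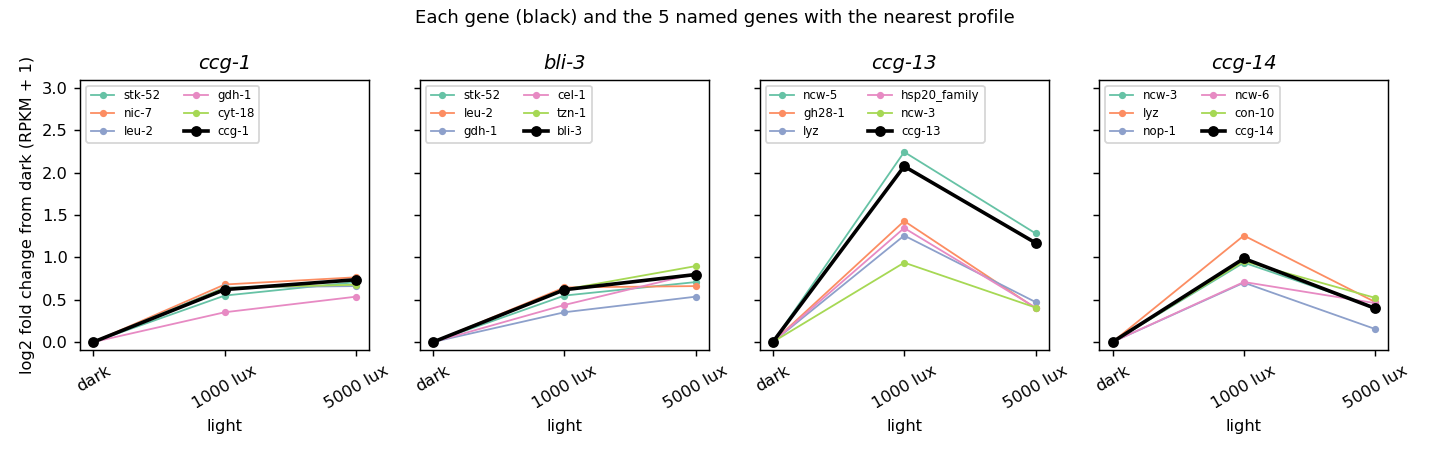
Log2 fold change from darkness on log2(RPKM + 1) (vertical axis) at 1000 and 5000 lux for each gene (black) and the 5 named genes with the nearest profile (colours). ccg-1 and bli-3 run in a narrow band with their neighbours, ncw-5 alone follows ccg-13 closely among the 5 shown, and ncw-3 lies on ccg-14.

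Genes that light induces in wild type were described beside these 4, from a list of 16 that leaves them out. Of 15 tested, 1 rose and 3 fell at 1000 lux against darkness, where 9.13% of all genes tested rose and 7.82% fell. Against darkness 1 rose and 0 fell at 5000 lux, where 6.7% of all genes tested rose and 2.92% fell. The medians were -0.08 and -0.03, against 0.0008 and 0.023 over all genes tested. The list holds wc-1, vvd and cry, which are labelled as deleted; without them, a count added after the data were seen, 1 of 12 rose and 2 fell at 1000 lux, and 1 rose and 0 fell at 5000 lux, with medians of -0.06 and 0.07. con-10, a conidiation gene, rose at 1000 lux (log2 fold change 0.96, limma adjusted p = 0.015). al-1 and al-2 of carotenoid synthesis fell there (-0.62, limma adjusted p = 0.044, and -0.33, limma adjusted p = 0.039), as did vvd (-0.51, limma adjusted p = 0.047). al-2 rose at 5000 lux against darkness (0.39, limma adjusted p = 0.028). Of the 15 tested, 1 rose and 1 fell at 5000 against 1000 lux, where 1.66% of all genes tested rose and 1.36% fell. The median there was 0.15, against 0.03 over all genes tested, and 10 of the 15 were above 0. Without the genes labelled as deleted that median was 0.19. At 5000 against 1000 lux al-2 rose (0.72, limma adjusted p = 0.0057), a call lost without replicate 1 of either intensity. con-8 fell there (-0.96, limma adjusted p = 0.034), a call lost without either 1000 lux library, 5000 lux replicate 1, the low-value filter or the variance trend. Each of the 5 calls against darkness was lost without at least 3 of the 6 libraries in turn, and vvd without all 6.

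Genes of the carbon response were also counted, from a list chosen with earlier results of these data known. Of 8 tested, 0 rose and 4 fell at 1000 lux against darkness, where 9.13% of all genes tested rose and 7.82% fell. Against darkness 0 rose and 1 fell at 5000 lux, where 6.7% of all genes tested rose and 2.92% fell. The medians were -0.39 and -0.08, against 0.0008 and 0.023 over all genes tested. acu-6, phosphoenolpyruvate carboxykinase, fell at both intensities, with log2 fold changes of -2.02 (limma adjusted p = 4.64e-05) and -1.50 (limma adjusted p = 0.00056). The isocitrate lyase gene acu-3 and the malate synthase gene acu-9 fell at 1000 lux by 1.12 and 0.93 on the log2 scale (limma adjusted p = 0.00045 and 0.0013). The 4th call, of the carbon catabolite repressor gene cre-1 at -0.33 (limma adjusted p = 0.0498), was lost without 4 of the 6 libraries in turn. At 5000 against 1000 lux 1 rose, acu-3 (0.81, limma adjusted p = 0.0086), and 0 fell, where 1.66% of all genes tested rose and 1.36% fell. The acu-3 call was lost without replicate 1 of either intensity and without the variance trend, and the number that rose was 0 to 3 over the alternatives.

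The summed RPKM of marker lists of other developmental states differed at 1000 lux, where ccg-13 and ccg-14 were highest. Members of each list went both ways. The summed RPKM of 10 conidiation markers was 261 to 306 in darkness, 166 to 176 at 1000 lux and 267 to 331 at 5000 lux, with 1 of 8 tested rising and 2 falling at 1000 lux against darkness, where 9.13% of all genes tested rose and 7.82% fell. The median log2 fold change of the 8 was -0.11, against 0.0008 over all genes tested, and 3 of the 8 were above 0. Of these calls, eas stood without each library in turn, con-10 was lost without 3 of the 6, and acon-2, a gene needed for conidiation (-0.52, limma adjusted p = 0.043), without any 1 of the 6. con-6 and con-13 stayed below 1 RPKM in every library, and eas was the largest part of this sum. con-8 went against eas, with means of 20.6 RPKM in darkness and 29.5 RPKM at 1000 lux, and was not called there. The summed RPKM of 10 sexual development markers was 95.0 to 98.8 in darkness and 168 to 205 at 1000 lux. At 5000 lux it was 102 to 103. Of 8 tested, 2 rose and 0 fell at 1000 lux against darkness, where 9.13% of all genes tested rose and 7.82% fell. Their median log2 fold change was -0.02 against 0.0008, and 4 of the 8 were above 0. asd-1, a gene of ascus development, made up most of the sum and rose at 1000 lux (log2 fold change 1.23, limma adjusted p = 0.0002). The other call, asd-4 (0.48, limma adjusted p = 0.032), was lost without any of the libraries but dark replicate 1. It was also lost without the low-value filter or the variance trend, and with only the 2 groups compared. At 5000 lux against darkness 1 of the 8 rose and 0 fell, where 6.7% of all genes tested rose and 2.92% fell. The gene that rose was again asd-4 (0.49, limma adjusted p = 0.042), a call lost under the same settings. Its log2 fold change there ranged from 0.31 to 0.67 when 1 library was left out. At 5000 against 1000 lux that of asd-4 was 0.01, so its rise was not limited to 1000 lux. asd-3 lay higher at 1000 lux than in darkness without overlap, as did 30.3% of all genes tested. poi-2, fmf-1, pre-1 and the untested pre-2 lay lower without overlap, for which the share of all genes is not given here. All of them were low, at 3.80 RPKM or below in every library. None of these was called. No marker of either list was at 0 in all libraries of a group, and the part of these markers in the levels of ccg-13 and ccg-14 was not tested. In bulk RNA a change in the share of such cells cannot be told apart from a change within the hyphae.

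The genes next to these 4 in the reference gene table were read as well. On the sides of ccg-1, NCU03752 had 31.6 to 37.3 RPKM and NCU03754 6.23 to 7.80 RPKM over the 6 libraries. Beside ccg-13, the gene gel-3 had 472 to 606 RPKM and NCU15078 was listed at 0 throughout. Beside ccg-14, col-26 had 6.69 to 9.64 RPKM and NCU07786 was listed at 0 in all libraries but dark replicate 2, where it had 0.505 RPKM. On the side of bli-3 without an overlap, NCU07268 had 1.59 to 2.14 RPKM. None of the 5 tested neighbours without an overlap was called in any of the 3 comparisons at a limma adjusted p under 0.05. Of all genes tested, 9.13% rose and 7.82% fell at 1000 lux against darkness. The shares were 6.7% and 2.92% at 5000 lux against darkness, and 1.66% and 1.36% at 5000 against 1000 lux, so nothing is read from 5 genes. NCU07266, which overlaps bli-3, rose at 1000 lux against darkness (log2 fold change 0.57).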

How the data were processed

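RPKM was computed by the authors, who deposited it for each library separately in 1 table. CASAVA 1.8 and HISAT appear in the submitters' processing notes without their roles, and the sources used here do not give the counting tool, strand setting, genome build or annotation. Of 10559 genes, 10526 were matched to a reference gene table (NC12), used for names and neighbours only. Whole reads were recovered for 9773 of the 9773 genes above 0, within 0.005 reads plus a relative 3e-07, taking the smallest gene length that gives whole reads. The 7841 genes that reached 1 RPKM in 2 or more libraries were fitted on log2(RPKM + 1) by limma 3.58.1 (R 4.3.3), with a variance trend, 3 groups in 1 fit and Benjamini-Hochberg adjustment over all genes tested; adjusted p under 0.05 was a call. The fit was run on simulated data with known changes at 1000 lux. It called 97 of 100 genes raised 1.5-fold, 100 of 100 raised 2-fold and 5 of 7641 unchanged genes. The noise was independent between libraries and drawn from the variance trend, so this checks only the working of the fit. It cannot test the spread between the real libraries.

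The 4 genes and all lists were chosen with earlier results of these data known. Named genes are the 4, the other ccg and bli genes, the 5 nearest genes with and without a symbol (those shown are examples), and up to 4 called genes of each further list. From the lists, spr-7 and glt-1 had no match. Of 7 ribosomal protein symbols, 0 were called by limma in any comparison, beside the shares of all genes given above. At 1000 lux against dark all 7 lay above 0, with a median log2 fold change of 0.12, against 0.0008 over all genes tested. At 5000 lux against dark 6 of the 7 lay above 0, with a median of 0.023, against 0.023 over all genes tested. Alternatives were other pseudocounts, filters, scalings, TPM, variance estimates, library weights, only the groups compared, a replicate block, limma voom on recovered reads and leaving out each library. Figures used matplotlib 3.10.9.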

Additional observations from a re-analysis of the deposited data

How the results depend on the processing

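The direction of every log2 fold change of the 4 genes was kept under all 19 alternatives. Counts for 1000 lux against dark were 716 higher and 613 lower, with 239 to 663 and 186 to 623 when 1 library was left out. For 5000 lux against dark they were 525 and 229, with 104 to 527 and 38 to 230; without the low-value filter 340 and 123, without the variance trend 337 and 142, with quantile normalization 371 lower and with voom 466 lower. The share of calls on the higher side was 69.6%, against 57.2% with quantile normalization and 56.9% with voom. For 5000 against 1000 lux they were 130 and 107, with 1 to 214 and 18 to 141; without the filter 42 and 47, without the trend 15 and 27, with library weights 222 and 165, with only the 2 groups compared 204 higher and with voom 187 lower. The calls of the 4 genes in these fits are no measure of stability, because the genes were chosen with these comparisons known. At 5000 against 1000 lux the number of the 4 called lower was 1 without the filter and 0 without the trend. ccg-14 was also not called at 5000 lux against dark without the filter, without the trend or under quantile normalization. The cause was not tested. A fit without a library of the compared groups leaves 1 there, assumed to vary like the others. With the replicate number as a block, the counts were 737 and 606, 558 and 236, and 130 and 108, and no call of the 4 genes changed. Over all genes tested, libraries with the same number deviated together at a correlation of -0.09 to 0.05. This cannot show whether they shared a culture or batch, and the labels do not say. Ranking by Pearson correlation shared 3, 2, 3 and 1 of the 10 nearest genes of ccg-1, ccg-13, ccg-14 and bli-3, so the named neighbours hold for the root mean square measure.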
